A study of Mus musculus with 3 samples.

Results

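Phosphatidylserine receptors and engulfment integrins are the surface proteins by which a phagocyte recognises a dying cell. Foxp3 peaks over 9 of their genes were examined in mouse bone marrow-derived macrophages, which are macrophages grown from marrow progenitors in medium conditioned with M-CSF. The members were the phosphatidylserine receptor genes Timd4, Havcr1, Havcr2, Stab2 and Adgrb1, the integrin subunit genes Itgav, Itgb3 and Itgb5, and Mfge8, whose product links phosphatidylserine to those integrins. They were taken by name from the 21627 genes that code for a protein on autosomes or X, and every peak of either Foxp3 library that touched the gene or the 5 kb beyond its ends in mm10 was counted. The study consists of 3 CUT&RUN libraries from cells fixed in 0.1% formaldehyde, of which 2 were made with a Foxp3 antibody (clone FJK-16s, replicates 1 and 2) and 1 with an isotype IgG, and only the Foxp3 peak lists were used here. Nothing in the labels names the strain, sex or age of the mice, the genotype, or separate cultures, so the spread between replicates may be technical. The title of the series names stimulation by damage-associated molecules of brain origin, and no label says which library received it. Binding data hold no expression values, so the labelled cell type could not be set against marker genes.

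Phosphatidylserine is a lipid that living cells keep on the inner leaflet of the plasma membrane and that dying cells expose as a signal for uptake. The TIM proteins, stabilin-2 and the adhesion receptor BAI1 bind it directly. The integrins alpha-v beta-3 and alpha-v beta-5 do not, and reach it through the secreted bridging protein MFG-E8, which holds phosphatidylserine with its C domains and integrins with an Arg-Gly-Asp motif. Foxp3, the lineage factor of regulatory T cells, binds DNA with a forkhead domain.

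Each of the 9 genes carried peaks in replicate 1 and in replicate 2 of the Foxp3 libraries. Over all genes 96.6% had a replicate 1 peak and 83.0% a replicate 2 peak. To have both is the usual state of a gene in these lists, since 82.7% of all protein-coding genes did so, and 92.8% of the 10353 genes whose windows were as long as the members' (25.3 to 177 kb). Replicate 1 listed 254 peaks over the members and replicate 2 listed 48, out of 556535 and 95135 peaks in all from 33294105 and 34898401 fragments. A peak was called shared where it overlapped a peak of the other replicate by at least 50% of both lengths. Shared peaks numbered 17 and fell on 8 of the 9 genes, with Timd4 the exception. Of all protein-coding genes 63.5% had a shared peak, and of those with windows as long as the members' 75.2%. The 17 shared peaks were 35.4% of the replicate 2 peaks over these genes, against 32.9% of the whole list. A further 10 replicate 2 peaks touched a replicate 1 peak by less than that, and 21 touched none. No test was made of these shares, because the genes were picked as a group and genes are not replicates.

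**Figure D1:**
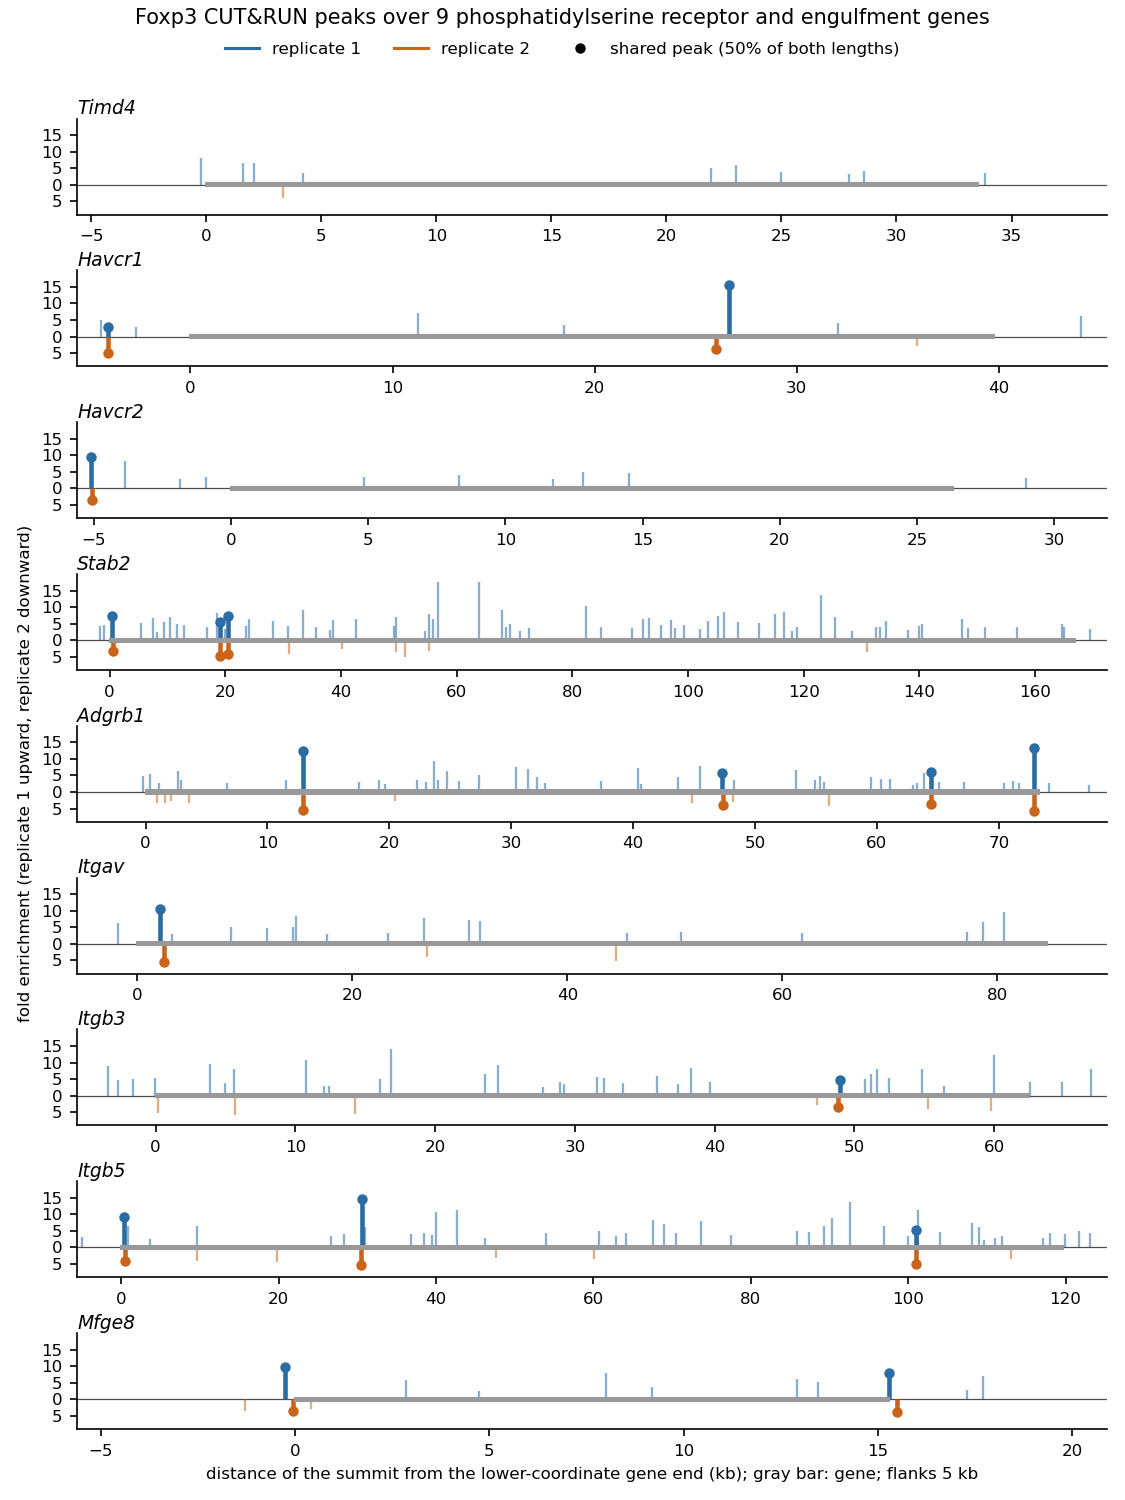
Peaks over the 9 member genes, drawn at the summit's distance in kb from the lower-coordinate gene end, with the deposited fold enrichment of replicate 1 upward and of replicate 2 downward. Thick lines with dots are the 17 shared peaks; Timd4 has none, and in Havcr2 the only replicate 2 peak lies at the edge of the window.

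The genes differed from each other at their transcription starts. For 7 members, with 9 annotated starts in all, a RefSeq table of GRCm38.p6 gives the 300 bases from 250 before to 50 after the start. Replicate 1 had a peak over such a window at 5 of the 7 genes (Itgav, Itgb5, Mfge8, Timd4 and, at 1 of its 3 starts, Havcr1), and replicate 2 at Itgb5 and Mfge8, where the peaks of both were shared. Over all genes of that table, 63.9% had a replicate 1 peak there, 50.6% a replicate 2 peak, 46.1% both and 37.1% a shared peak. Within 1 kb of a start, a distance chosen after the data were seen, Itgav joined Itgb5 and Mfge8 with peaks of both libraries, which made 3 of 7 genes against 61.0% of all genes. Timd4, Havcr1, Havcr2 and Stab2 had no replicate 2 peak within 1 kb of a start. Adgrb1 and Itgb3 are described by their lower-coordinate and higher-coordinate ends.

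The sequence before the start is shown for the 3 genes where both libraries had a peak at the start, Itgb5, Mfge8 and Itgav, and for Timd4 as a TIM gene with a peak in replicate 1 alone. Each run, from RefSeq on GRCm38.p6, is the 250 bases that end just before the annotated start, 5′ to 3′ on the strand of the gene. Capitals mark the bases under peaks of both replicates in Itgb5 and Mfge8, and under the replicate 1 peak in Itgav and Timd4.
Itgb5, chr16:33829415-33829664, plus strand: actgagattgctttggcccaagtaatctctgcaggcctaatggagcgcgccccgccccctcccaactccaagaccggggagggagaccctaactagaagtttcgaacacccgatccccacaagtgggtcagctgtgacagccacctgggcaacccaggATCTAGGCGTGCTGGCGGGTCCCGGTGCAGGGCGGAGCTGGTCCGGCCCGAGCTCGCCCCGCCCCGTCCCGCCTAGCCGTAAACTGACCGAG
Mfge8, chr7:79149061-79149310, minus strand: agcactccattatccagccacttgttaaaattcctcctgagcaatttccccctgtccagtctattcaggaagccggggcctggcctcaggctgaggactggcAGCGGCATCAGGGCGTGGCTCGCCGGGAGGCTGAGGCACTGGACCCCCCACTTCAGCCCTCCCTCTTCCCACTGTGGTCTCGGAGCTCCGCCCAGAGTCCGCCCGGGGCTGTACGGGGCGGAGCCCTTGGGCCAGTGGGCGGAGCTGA
Itgav, chr2:83724147-83724396, plus strand: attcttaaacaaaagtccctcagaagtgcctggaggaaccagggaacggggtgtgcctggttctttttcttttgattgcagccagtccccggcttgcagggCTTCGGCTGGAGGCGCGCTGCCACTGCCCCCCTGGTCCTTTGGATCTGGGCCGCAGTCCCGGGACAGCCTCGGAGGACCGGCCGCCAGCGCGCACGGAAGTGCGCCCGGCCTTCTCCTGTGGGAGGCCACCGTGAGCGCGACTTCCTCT
Timd4, chr11:46810549-46810798, plus strand: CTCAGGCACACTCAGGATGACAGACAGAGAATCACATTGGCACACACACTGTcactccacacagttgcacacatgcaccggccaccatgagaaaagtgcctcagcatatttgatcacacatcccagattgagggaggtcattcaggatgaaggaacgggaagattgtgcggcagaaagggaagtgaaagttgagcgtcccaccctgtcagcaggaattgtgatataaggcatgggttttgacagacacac

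The Itgb5, Mfge8 and Itgav windows hold more CpG dinucleotides than the median promoter, and those of the TIM genes and Stab2 hold fewer. In the 300 bases Itgav had 24 CpG, Itgb5 20 and Mfge8 17, against a median of 13 over 21044 promoters. Timd4 had 5, Stab2 4, Havcr2 3, and the 3 starts of Havcr1 had 4, 3 and 2. Peaks followed CpG content over all promoters of the table as well. In the richest class, with 26 to 67 CpG, 89.1% of promoters had peaks of both replicates, and no member promoter lies in it. Both replicates had a peak over 65.9% of promoters with 14 to 25 CpG, the class of Itgav, Itgb5 and Mfge8, over 19.1% of those with 5 to 13, the class of Timd4, and over 1.99% of those with 0 to 4, where the other member promoters lie. The part of base composition in the difference between members was not tested.

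**Figure D2:**
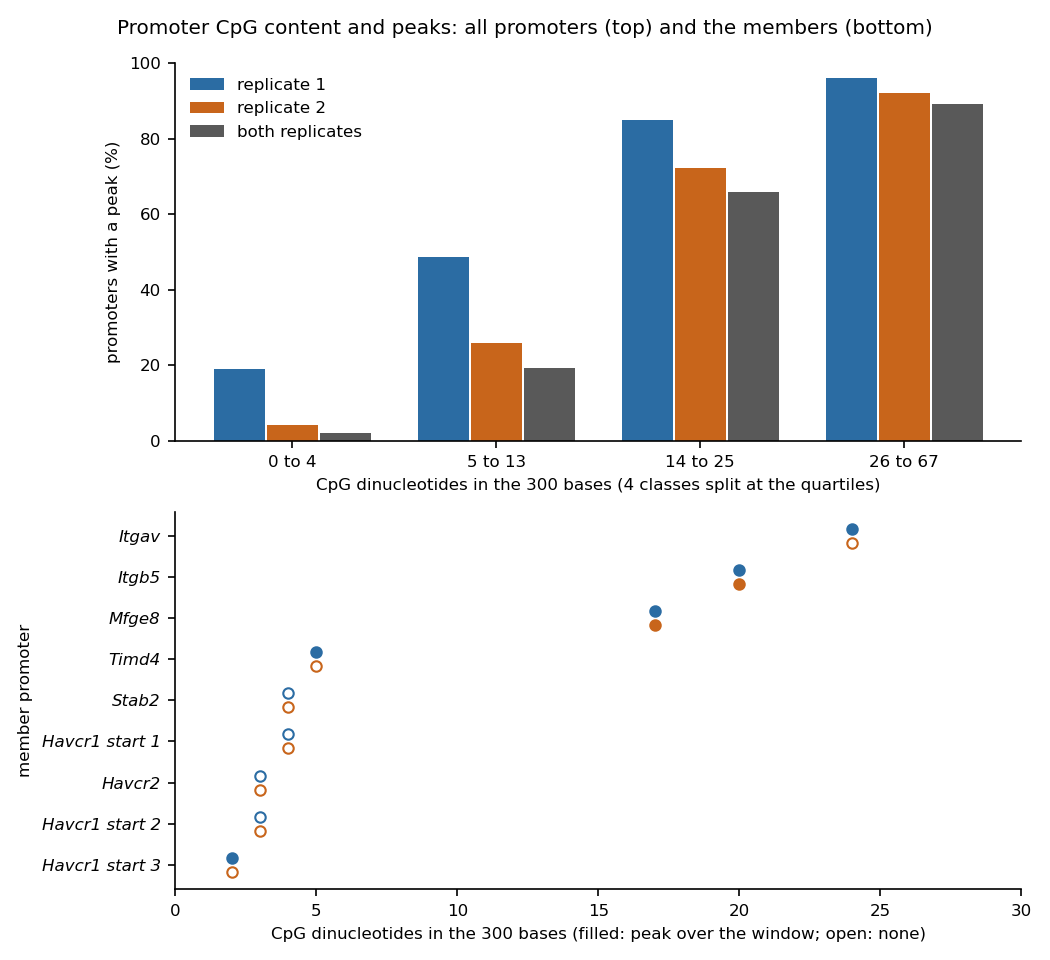
Top, share of all promoter windows (300 bases) with a peak, in percent, in 4 classes of CpG count, for replicate 1, replicate 2 and both. Bottom, the CpG count of each member promoter, filled where a peak of replicate 1 (upper point) or replicate 2 (lower point) lies over the window; the filled replicate 2 points are Itgb5 and Mfge8, with 20 and 17 CpG.

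Sequence words of known factors were searched on both strands of the 300 bases, and a match is only a match of letters. The 9 member promoters held the forkhead word TGTTTAC in no case (3.03% of all promoters hold it), and TGTTTGC occurred once (4.62% of all), 203 bases before 1 of the Havcr1 starts, at position 46751168, and outside the replicate 1 peak there. No window held 3 repeats of TTTG in a row (0.518%), CACGTG (7.91%) or TATAAA (12.7%). TGANTCA, the AP-1 word, was found in Havcr2 and at the same Havcr1 start (7.04% of all). The PU.1 word GAGGAAGT, or its reverse complement, lay within 9 bases of the start in 2 of the 9 windows, those of Itgav and Havcr2, and is held by 3.15% of all promoters. PU.1 is a main transcription factor of the macrophage lineage. The last 40 bases before these starts are shown with the word in capitals. In Itgav it is on the opposite strand, 9 to 2 bases before the start and under the replicate 1 peak. In Havcr2 it takes the 8 bases next to the start, and neither library had a peak over that window.
Itgav, chr2:83724357-83724396, plus strand: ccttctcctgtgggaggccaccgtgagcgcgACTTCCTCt
Havcr2, chr11:46454891-46454930, plus strand: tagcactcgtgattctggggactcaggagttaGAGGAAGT

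The TIM genes among the members lie near each other on chromosome 11. They carried 8 to 10 peaks each in replicate 1 and 1 to 3 in replicate 2. Per kb of window they lay between the 21.9th and 44.3rd percentile of all genes in replicate 1. In replicate 2 they lay between the 23.9th and 49.2nd. Timd4 (gene ID 276891, positions 46810786 to 46844333) encodes TIM-4, which tethers dying cells and is known from resident macrophages of the peritoneum. It had 10 peaks in replicate 1, with fold enrichments from 3.17 to 7.93, and 1 in replicate 2, with a fold of 3.93. Fold enrichment is the peak caller's own value, the fragments over the summit plus 1 divided by a background term of the same library. The strongest Timd4 peak ended 199 bp before the start, with 29 fragments over its summit (95% exact Poisson interval 19.4 to 41.6, for counting error only). The replicate 2 peak began 3272 bp downstream of the start, held 19 fragments and touched no replicate 1 peak. No stretch of Timd4 was thus listed by both libraries.

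Havcr1 (gene ID 171283, positions 46739822 to 46779578) encodes TIM-1, known as kidney injury molecule and from T and B cells. Its 8 replicate 1 peaks ranged from 2.91 to 15.5 in fold and its 3 replicate 2 peaks from 2.95 to 4.91. Both libraries listed a broad peak well inside the gene, at 46765723 to 46766590 (868 bp) in replicate 1 and 46765710 to 46766539 (830 bp) in replicate 2. The borders nearly coincide, but the summits stood 639 bp apart, the widest gap among the 17 shared peaks. Replicate 1 had 70 fragments over its summit (54.6 to 88.4) and a fold of 15.5, and replicate 2 had 18 (10.7 to 28.4) and a fold of 3.73. The second shared peak of Havcr1 lay in the flank, about 4 kb below the gene. Its fold was 2.91 in replicate 1 and 4.91 in replicate 2, and among the 17 shared peaks it alone was higher in replicate 2. At the Havcr1 start named above the replicate 1 peak had a fold of 7.14, and the nearest replicate 2 peak was 14.54 kb away.

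Havcr2 (gene ID 171285, positions 46454931 to 46481255) encodes TIM-3, an inhibitory receptor of T cells that is also found on myeloid cells. Of its 10 replicate 1 peaks 5 had their summit inside the gene, and none of those had a fold above 5.03. The only replicate 2 peak (46449773 to 46450204, fold 3.50, 17 fragments) was shared with the strongest replicate 1 peak (46449712 to 46450222, fold 9.54, 37 fragments). The summits lay 47 bp (replicate 2) and 100 bp (replicate 1) outside the window of 5 kb, and only the inner parts of the peaks reached into it. With a flank of 1 kb or none, Havcr2 had no replicate 2 peak. Reads that fit more than 1 TIM gene cannot be traced in peak lists, and their part was not tested.

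Stab2 (gene ID 192188, chromosome 10, positions 86841194 to 87008038, minus strand) encodes stabilin-2, a receptor for phosphatidylserine and hyaluronan that is typical of sinusoidal endothelium. With 166845 bp it is the longest member, and it had the most replicate 1 peaks (71, folds from 2.59 to 17.6) with only 9 in replicate 2 (2.75 to 5.10). The strongest member peaks of replicate 1 were here, with folds of 17.6 and 17.5 and 69 and 66 fragments over their summits. Neither was touched by a replicate 2 peak. All 9 replicate 2 peaks had their summit inside the gene, and 8 of them lay within 55.2 kb of its lower-coordinate end, away from the start. By fold, the 3 shared peaks of Stab2 lay at the 59.4th to 79.0th percentile of the replicate 1 list and the 22.6th to 75.3rd of the replicate 2 list. One lay 414 bp inside the lower-coordinate end, which is where transcription of this minus-strand gene ends (7.39 and 3.34 in replicates 1 and 2). The others were 19.01 and 20.38 kb inside (5.54 and 4.88, then 7.33 and 4.17). At the start the nearest peak was 1.58 kb away in replicate 1 and 16.25 kb, beyond the window, in replicate 2.

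Adgrb1 (gene ID 107831, chromosome 15, positions 74516196 to 74589465) encodes BAI1, an adhesion receptor that binds phosphatidylserine with its thrombospondin repeats, signals to ELMO and DOCK proteins, and is abundant in brain. It was the member with most replicate 2 peaks (12) and most shared peaks (4). Fold enrichments ranged from 2.11 to 13.4 over 48 peaks in replicate 1 and from 2.59 to 5.65 in replicate 2. The strongest peak of both libraries was the same one, near the higher-coordinate end, at 74588817 to 74589295 in replicate 1 and 74588924 to 74589190 in replicate 2. It had 179 fragments over the summit in replicate 1 (154 to 207, fold 13.4) and 38 in replicate 2 (26.9 to 52.2, fold 5.65), with summits 43 bp apart. The next strongest in either library was again common to them, about 12.9 kb inside the lower-coordinate end, with folds of 12.3 and 5.32 and summits 46 bp apart. The lower-coordinate end held peaks of both libraries within 1 kb, yet they met by only 4 bp, with folds of 2.80 and 3.30.

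Folds at Adgrb1 stand on a raised local background. The background term, computed here as pileup plus 1 over fold, had a median of 12.0 fragments over its replicate 1 peaks and 10.2 over its replicate 2 peaks, where the lowest value in the lists is 3.78 and 5.09. Only 2.53% and 2.42% of genes with a peak had a median as high in replicates 1 and 2. Mfge8 came next with 6.62 and 6.77. The medians of the other members lay between 3.78 and 4.58 in replicate 1 and between 5.09 and 5.22 in replicate 2. The raised level at Adgrb1 and Mfge8 was thus seen in both libraries, and its part in their peak numbers was not tested. The peak caller had no control library, so this level comes from the Foxp3 libraries and can include fragments of the genes' own peaks. Adgrb2, the relative of Adgrb1 encoding BAI2, had medians of 12.6 and 10.5.

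**Figure D3:**
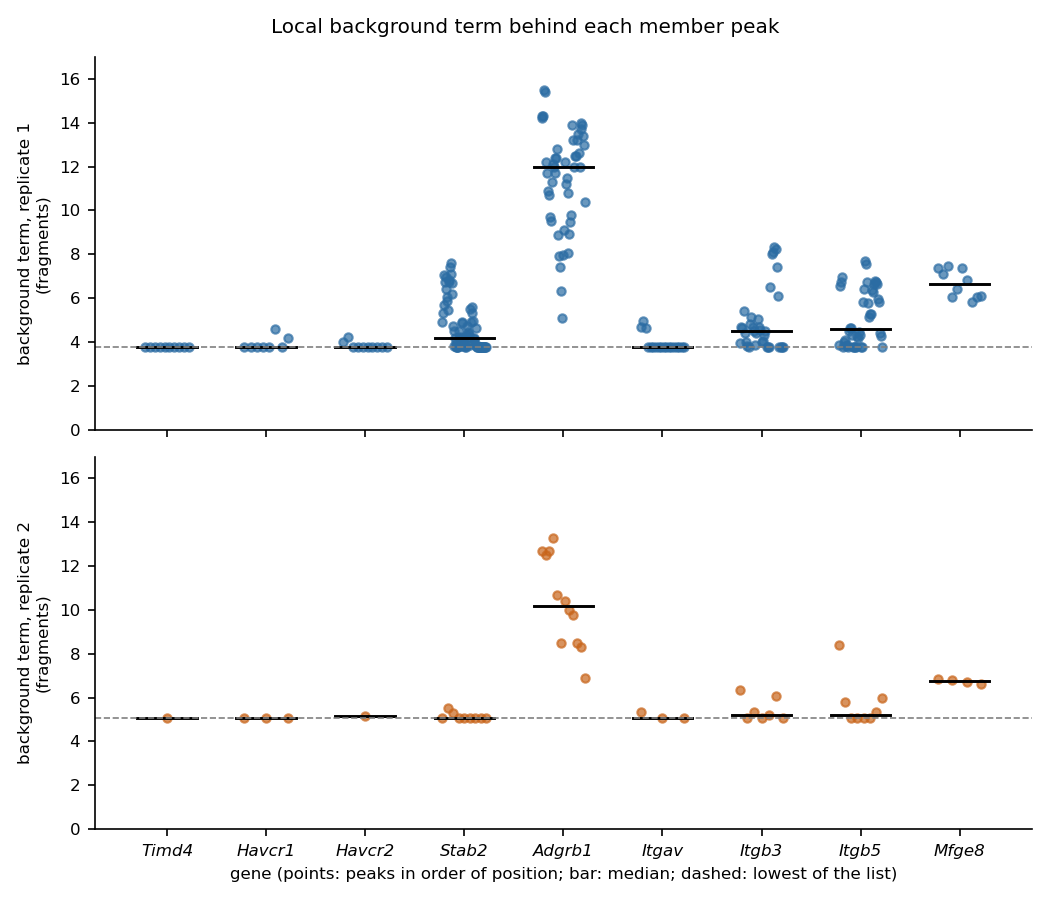
Background term (fragments) behind each member peak, for replicate 1 (top) and replicate 2 (bottom), with the median as a bar and the lowest value of the whole list dashed. Adgrb1 stands above the other members in both libraries, with medians of 12.0 and 10.2, and Mfge8 follows with 6.62 and 6.77.

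Itgav (gene ID 16410, chromosome 2, positions 83722303 to 83806917) encodes the alpha-v subunit, common to both engulfment integrins. It had 18 peaks in replicate 1 (2.91 to 10.5) and 3 in replicate 2 (3.93 to 5.45). In each library the strongest was the peak at the annotated start, which lies 2094 bp inside the gene's lower-coordinate end. It spanned 83724248 to 83725104 with 51 fragments (38.0 to 67.1) in replicate 1, and 83724509 to 83725087 with 28 (18.6 to 40.5) in replicate 2. The replicate 1 peak covers the start, while the replicate 2 peak begins 112 bp downstream of it. Their summits were 364 bp apart. The other replicate 2 peaks of Itgav, at folds of 5.30 and 3.93, touched no replicate 1 peak.

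Itgb5 (gene ID 16419, chromosome 16, positions 33829665 to 33949338) encodes the beta-5 subunit. Peaks of both libraries covered its start, at 33829219 to 33830189 with 60 fragments (45.8 to 77.2, fold 9.30) in replicate 1 and at 33829573 to 33830610 with 33 (22.7 to 46.3, fold 4.05) in replicate 2. With 1038 bp the latter was the longest member peak of replicate 2, and it also reached a second replicate 1 peak of fold 6.53. The strongest Itgb5 peak of each library was a shared one 30.41 kb inside the gene, with folds of 14.7 and 5.30. The remaining shared peak lay 100.95 kb inside, with folds of 5.33 and 4.87, and its pileups of 27 (17.8 to 39.3) and 25 (16.2 to 36.9) fragments overlapped in their intervals. Over the whole gene, 44 replicate 1 peaks (2.35 to 14.7) and 8 replicate 2 peaks (3.14 to 5.30) were listed.

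Itgb3 (gene ID 16416, chromosome 11, positions 104608000 to 104670476) encodes the beta-3 subunit, known also from platelets and osteoclasts. It had 35 replicate 1 peaks (2.58 to 14.1) and 7 replicate 2 peaks (2.95 to 5.89), the latter including the strongest replicate 2 peak of any member. That peak, with its summit 5.68 kb inside the lower-coordinate end, overlapped a replicate 1 peak of fold 8.18 by 99 bp, which was 40.2% of its length and short of the rule for sharing. The same held at the lower-coordinate end itself, where a replicate 1 peak of 359 bp (fold 5.19, 27 fragments) lay wholly within a replicate 2 peak of 901 bp (fold 5.35, 33 fragments). Only a weak peak 48.84 kb inside met the rule, with folds of 4.62 and 3.47. The strongest replicate 1 peak of Itgb3, at 14.1, was touched by no replicate 2 peak.

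Mfge8 (gene ID 17304, chromosome 7, positions 79133768 to 79149060, minus strand) encodes the bridging protein and is the shortest member. Both of its ends carried a shared peak. At the start, the peaks ran from 79148815 to 79149208 in replicate 1 (fold 8.05, 46 fragments, 33.7 to 61.4) and from 79148906 to 79149268 in replicate 2 (fold 3.77, 24 fragments, 15.4 to 35.7). At the far end they ran from 79133423 to 79134101 (fold 9.78, 71 fragments) and from 79133510 to 79133920 (fold 3.52, 23 fragments). That second site lies within 1 kb of an end of the neighbouring gene Hapln3 and could not be assigned to Mfge8 alone. Mfge8 had 10 replicate 1 peaks and 4 replicate 2 peaks, of which 3 were near Hapln3, and all 4 replicate 2 summits lay within 1.3 kb of a gene end.

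Among the 17 shared peaks, 3 lay at annotated starts (Itgav, Itgb5, Mfge8), 3 at other gene ends (Stab2, Adgrb1, Mfge8), 9 further inside genes and 2 in flanks. A shared peak within 1 kb of a gene end or an annotated start was thus found at 5 of the 9 members, at Itgav through its start alone. Of all genes, 43.9% had a shared peak within 1 kb of a gene end, with starts inside genes not counted. The count and the share are thus not of the same measure. Fold was higher in replicate 1 for 16 of the 17, and over all shared peaks of the lists for 90.0%, so the members shared this direction with the lists. Pileups were also higher in replicate 1 for 16 of 17, at 0.954 times the fragments, and for 8 of them the 95% Poisson intervals of the replicates did not overlap. Summits stood a median of 126 bp apart, against 71 bp over all shared peaks. Across the 28 overlapping pairs over the members, Spearman's rho between the folds of replicates 1 and 2 was 0.20, a description over peaks that come from the same libraries.

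**Figure D4:**
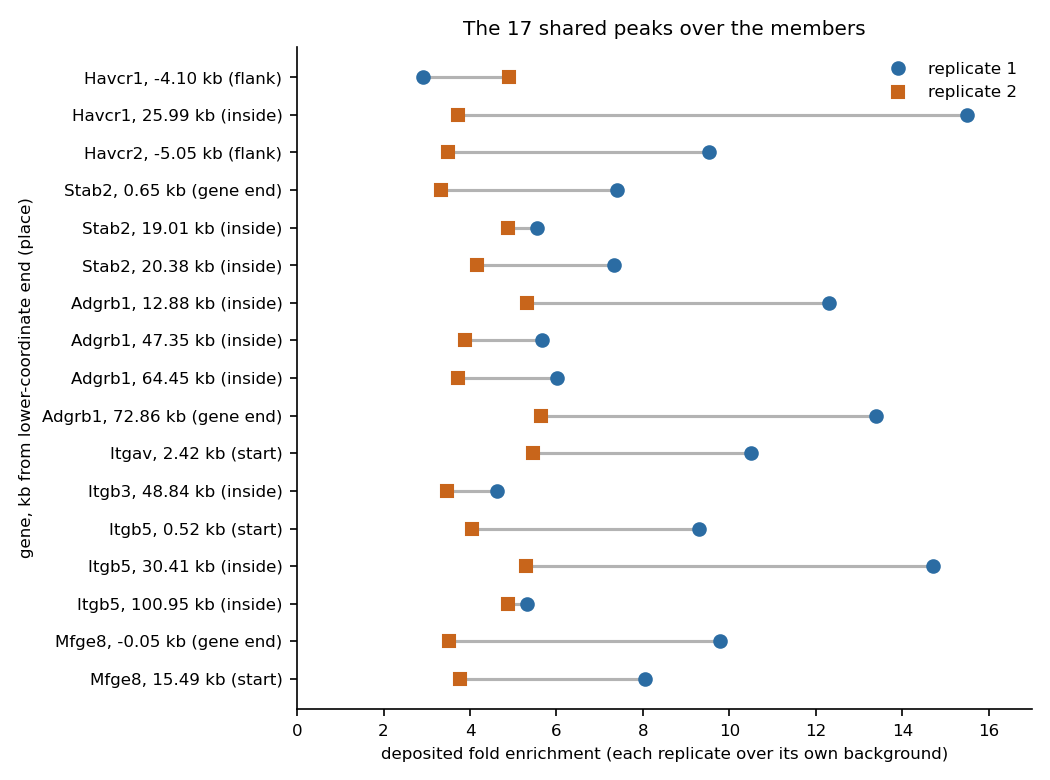
Deposited fold enrichment of the 17 shared peaks in replicate 1 (circles) and replicate 2 (squares), named by gene and by the replicate 2 summit's distance in kb from the lower-coordinate end. Replicate 2 values lie between 3.34 and 5.65 while replicate 1 values spread from 2.91 to 15.5, and only the flank site of Havcr1 is higher in replicate 2.

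The strength of member peaks was ordinary for the lists. Their median fold was 4.76 in replicate 1 and 3.75 in replicate 2, beside 4.92 and 3.99 over all peaks. The strongest fold of each gene had a median of 13.4 and 5.10 over the members, beside 12.4 and 5.50 over all genes with a peak. At least as strong a peak as the best of the members, 17.6 at Stab2 and 5.89 at Itgb3, was found at 17.2% of genes in replicate 1 and at 34.1% in replicate 2.

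Peak number followed gene length. The rank correlation (Spearman's rho) of window length with peak number was 0.80 in replicate 1 and 0.64 in replicate 2 over the 9 members, and 0.80 and 0.62 over all genes, as a description. Per kb of window, Adgrb1 (0.576) and Itgb3 (0.483) were the densest members in replicate 1, at the 94.4th and 83.1st percentile of all genes. Mfge8 (0.158) and Adgrb1 (0.144) were the densest in replicate 2, at the 90.1st and 86.6th percentile. The rank of Mfge8 rests on 4 peaks in a window of 25.29 kb. Only 1 of them was left without peaks within 1 kb of another gene's end. Havcr1 (0.161) and Itgav (0.190) were the sparsest in replicate 1, and Timd4 (0.0230) and Havcr2 (0.0275) in replicate 2. The medians over the 9 members, 0.339 and 0.0603, lay close to those over all genes, 0.306 and 0.0616.

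**Figure D5:**
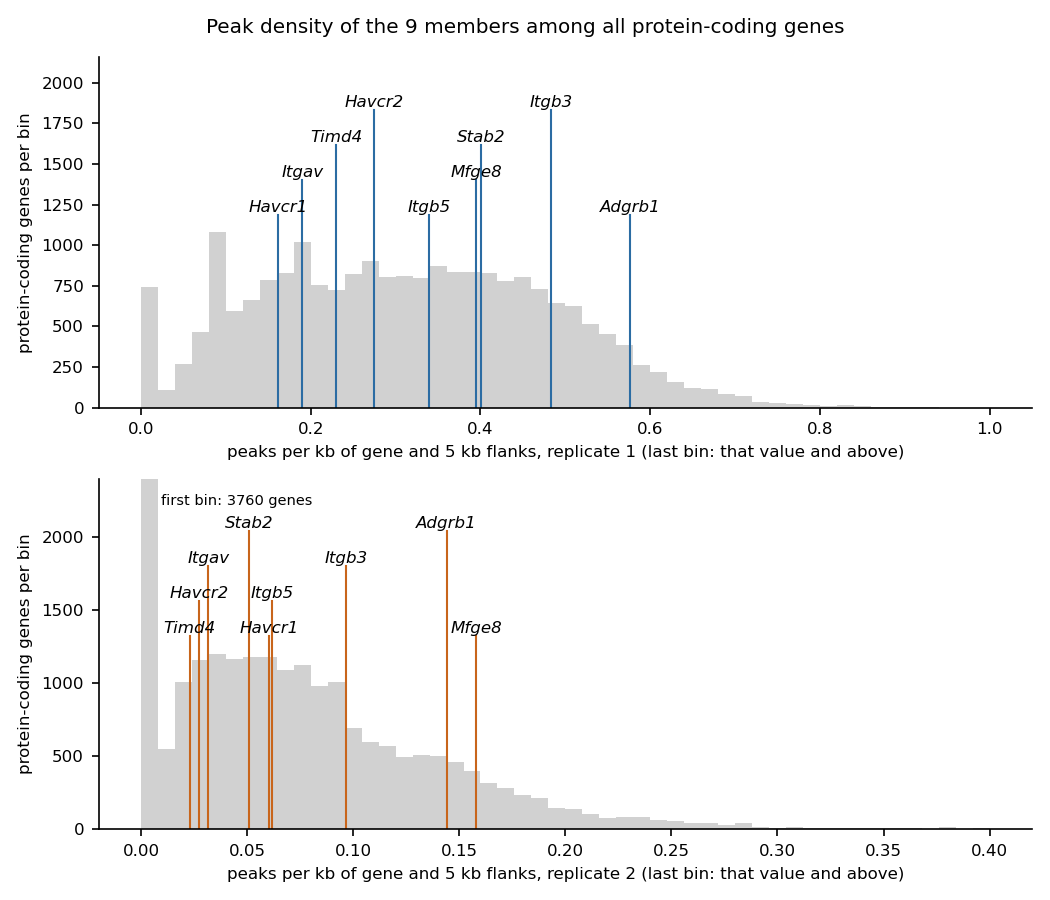
Peaks per kb of gene and 5 kb flanks for all protein-coding genes (gray histogram, genes per bin) with each member marked by a line, for replicate 1 (top) and replicate 2 (bottom). Adgrb1 lies at 0.576 and 0.144 peaks per kb, while Timd4, Havcr1, Havcr2 and Itgav lie below the medians of 0.306 and 0.0616 in both libraries.

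Peaks over relatives and partners of the members were counted in the same way. Of 9 such genes (Timd2, Stab1, Adgrb2, Adgrb3, Itga5, Itgb1, Itgb6, Itgb8 and Edil3), 8 had a shared peak. Of all genes 63.5% had one, and of those with windows as long as the members' 75.2%. The windows of these 9 genes ran from 32.51 kb (Itga5) to 777.3 kb (Adgrb3), and longer windows hold more peaks. Timd2, the remaining TIM gene of the chromosome 11 cluster, had 16 replicate 1 peaks and none in replicate 2. By the mean over both replicates of the strongest fold's percentile within its list, the leading genes with a shared peak were Edil3, which encodes a bridging protein related to MFG-E8 (14.5 and 7.85), Adgrb3 (19.0 and 7.07) and Itgb1, the beta-1 integrin subunit (15.9 and 6.48). Of 25 other engulfment genes, 22 had a shared peak, beside the same shares of 63.5% and 75.2%. Their windows ran from 12.93 kb (C1qa) to 527.8 kb (Elmo1), and no share was computed for genes of matched length. Of the 25, 19 had a shared peak without peaks within 1 kb of another gene's end, and 18 with summits within 100 bp. No share over all genes was computed at those settings. By the same mean percentile the leading genes were Trem2, a lipid receptor of macrophages and microglia (27.4 and 10.6), Pros1, the bridging ligand of the TAM receptors (18.6 and 9.42), and Rac1, the GTPase that drives the phagocytic cup (20.8 and 8.21). Trem2 had 3 peaks in replicate 1 and 2 in replicate 2, none of them within 1 kb of its annotated start. Its median background terms were 24.3 and 9.35, at the 99.9th and 95.5th percentile of genes with a peak. Cd300lb had no replicate 2 peak. No member reached the replicate 2 folds of these 6 leading genes, but they were picked for their strong peaks. The difference is therefore not a comparison of the lists.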

How the data were processed

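Binding was measured by CUT&RUN with a Foxp3 antibody in 2 libraries, and peak lists of both were used. CASAVA 1.4 and the mm10 build are named in the submitters' processing notes, and the read aligner was not given in the sources used. The authors, per the file headers, called peaks with MACS 2.1.1.20160309 on each library separately, in paired-end mode, at a q-value cutoff of 0.01, without a control library and with duplicates kept, so a fragment amplified many times, or a site cut with any antibody, can be listed. Pileup, a signal as deposited, counts the fragments lying over a summit without scaling to depth. Fold enrichment, as deposited, is a ratio to background in the same library, and significance was deposited as −log10 p and −log10 q. No site with a pileup under 10 fragments (replicate 1) or 13 fragments (replicate 2) was listed.

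Genes were placed with the RefSeq table of GRCm38.p6, whose coordinates equal those of mm10 on the 19 autosomes and X, and starts and strands from its promoter table, which covered 7 of the 9 members. Overlaps, counts, percentiles and exact Poisson intervals were computed with Python 3.11.15, pandas 2.3.3 and scipy 1.17.1, and the overlap steps were tested on simulated data. No p-value was computed, since values of the IgG library were not used here and the Foxp3 libraries are 2 replicates of 1 group. Members, lists and settings were chosen with earlier results of these data known. Of the other lists, the text names the 3 genes with a shared peak and the highest mean percentile of their strongest fold, and those without a replicate 2 peak. The start and CpG comparisons were added after seeing the data.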

Additional observations from a re-analysis of the deposited data

How the results depend on the processing

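No paired analysis was possible because the results are counts of peaks from 2 libraries of 1 group and come from no test. Counting a single library left 9 of 9 members with a peak, without replicate 1 and without replicate 2 alike. The count of members with peaks of both libraries (9) and with a shared peak (8) stayed within 1.5 times under flanks of 0, 1 and 10 kb, without peaks near other genes' ends, and with the strongest replicate 1 peaks in equal number. With peaks of −log10 q of at least 5, members with a shared peak fell from 8 to 5, and Havcr1, Havcr2 and Itgb3 dropped out. With folds of at least 5 only 3 members kept one (Adgrb1, Itgav and Itgb5), 5 members had peaks of both replicates, shared peaks numbered 4, and 118 and 9 peaks were left in replicates 1 and 2, while shared peaks were left at 5 related and 9 other engulfment genes. Shared peaks over the members numbered 27 with an overlap of 1 bp, 10 with summits within 100 bp and 9 with the strongest replicate 1 peaks by fold. With summits within 100 bp 6 members had a shared peak, and Itgav and Mfge8 dropped out. With the strongest replicate 1 peaks by fold 6 members also had one, and Stab2 and Itgb3 dropped out. Those strongest peaks numbered 41 over the members by fold and 57 by −log10 q. Filters by fold can remove a gene's strongest fold but not move it. Filters by −log10 q can also move it, but each strongest member fold that was left kept its value. The strongest folds were also compared over the flanks and the removal of peaks near other genes' ends. Havcr2 had 5.03 in replicate 1 with flanks of 0 or 1 kb, and Itgav had 15.6 in replicate 1 with 10 kb. Depth limits the listing to sites above the smallest pileups, and no IgG values were used here, so no site was set against an antibody control.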
